A study of Mus musculus with 2 samples.

Results

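Footprints are short stretches of open chromatin that DNase I cuts less often than the bases beside them. Described here are those that lie outside every called peak of their own library. They were chosen by one rule, applied to each library alone: a footprint was kept if it shared no base with any peak of the longer of that library's 2 peak lists. The rule kept 24385 of 297594 footprints in replicate 1 (8.19%) and 27736 of 298189 in replicate 2 (9.3%), or 52121 of 595783 in all. The mean share was 8.75% ± 0.783 (SD, n = 2). The remaining footprints, 273209 and 270453, share at least 1 base with a peak and are called inside footprints.

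The 2 libraries are DNase-seq of whole adrenal glands from female mice of 36 days. The strain is B6CASTF1/J, an F1 hybrid of C57BL/6J and the wild-derived CAST/EiJ, with no transgene and no treatment. The libraries are labelled biological replicates 1 and 2 of a single group, numbered as different animals under one donor record, so the spread between them may be partly technical. A whole gland mixes cortex, medulla, vessels and blood cells, and a hybrid carries 2 alleles, so that each footprint is an average over cell types and alleles. There is no second condition. With 2 libraries the smallest exact two-sided p is 0.5, so values are given for each library and no p is printed.

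All 5 cortex genes examined, among them Nr5a1 and Star, had a promoter peak in both libraries, at heights of 2.62 to 11.7, and so did all 4 medulla genes, at 0.738 to 17. Of the 7 kidney, liver and muscle genes, 1 had a peak, Slc12a1 in replicate 2, at a height of 0.212. Height is the signal that the authors list with each peak. Its median over all peaks was 0.897 in replicate 1 and 0.997 in replicate 2. The depth of the libraries in reads is not given in the files used here.

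DNase I cuts DNA where nucleosomes are absent or moved aside, which happens at promoters, enhancers and insulators. A protein bound to its motif shields those bases and leaves a narrow dip in an otherwise dense field of cuts. Peaks mark the strongest part of such a field. A separate table lists the false discovery rate (FDR) of the cut rate along the genome, in which a field of cuts can reach past the ends of its peak. Promoters of broadly expressed genes often hold wide CpG-rich open stretches with binding sites for SP, ETS, NFY, NRF1 and YY1 proteins on both sides of the transcription start site (TSS).

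The sites below lie outside the peaks of both libraries, and are among the widest such sites and those farthest from any peak. None overlaps an annotated exon. Each is the plus strand of the reference assembly GRCm38 (mm10), which holds the C57BL/6J allele. Capitals mark the footprint and lower case marks 10 bp on each side. The Hdgfl2 interval is that of replicate 2, and the others are those of replicate 1.
Bicdl1, chr5:115653175-115653239: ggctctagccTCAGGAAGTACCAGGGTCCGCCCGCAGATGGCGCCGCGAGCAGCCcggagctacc
Hspa2, chr12:76404017-76404079: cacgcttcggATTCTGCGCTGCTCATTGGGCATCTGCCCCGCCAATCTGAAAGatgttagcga
Lsm14b, chr2:180024636-180024695: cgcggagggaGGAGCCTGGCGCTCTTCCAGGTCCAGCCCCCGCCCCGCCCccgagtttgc
Smarcc2, chr10:128458613-128458672: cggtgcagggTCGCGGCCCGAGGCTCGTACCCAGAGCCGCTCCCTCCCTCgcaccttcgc
Hexim2, chr11:103133119-103133178: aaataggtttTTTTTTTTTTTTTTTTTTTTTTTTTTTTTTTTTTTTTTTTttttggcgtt
Fbxo31 far, chr8:121579382-121579410: aaaccaaagcTACCGTCGCctagcaacac
Fbxo31 near, chr8:121579308-121579349: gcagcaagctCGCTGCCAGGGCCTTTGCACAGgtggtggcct
Hdgfl2, chr17:56079016-56079080: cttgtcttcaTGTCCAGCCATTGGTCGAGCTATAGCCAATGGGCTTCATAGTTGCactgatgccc

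Each of these 8 sites lies within 1 kb of a TSS. The Bicdl1 and Hexim2 sites are in introns of longer transcripts of those genes, the Fbxo31 sites are inside the annotated Gm20388, and the others overlap no gene. The Bicdl1 site, 221 bp upstream of the start of a gene for a dynein cargo adaptor, was 45 bp wide with the same ends in both libraries, and lay 24 bp from the nearest peak in each. Its lowest FDR was 7.1e-160 and 1.6e-178. The site upstream of Hspa2, a gene of the HSP70 chaperone family, was 43 and 44 bp wide and holds the letters CCAAT on one strand and again on the other. It lies 128 bp upstream of Hspa2 and 66 bp upstream of the noncoding 4930426I24Rik. The Lsm14b site, 321 bp upstream of a gene for an RNA-binding protein, was 40 bp wide in both and ends in a match to the SP/KLF letters GGGCGGG on the minus strand.

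The site 605 bp upstream of Smarcc2, a subunit of the BAF chromatin remodelling complex, is 37 bp upstream of Mir8105 and lay 2 and 1 bp from a peak. The Hexim2 site, 165 bp upstream of the gene for an inhibitor of the elongation kinase P-TEFb, is a run of T of 40 and 43 bp as called. Its lowest FDR was 6.0e-35 and 4.8e-125, and it lay 8 and 5 bp from a peak. Over all outside footprints, 1.01% in replicate 1 and 0.826% in replicate 2 had a run of at least 10 A or 10 T in the 31 bp around their centre, against 0.185% and 0.198% of inside footprints. Runs of at least 10 G or 10 C were in 0.476% and 0.458% against 0.132% and 0.142%. The part that such runs play in these calls was not tested.

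Both Fbxo31 sites belong to a row of footprints upstream of a gene for an F-box protein, a substrate receptor of a ubiquitin ligase. They are called far and near by their distance from the TSS. The far site, 9 and 12 bp wide, was 590 bp upstream of the TSS and 431 and 428 bp from the nearest peak, which made it the farthest of the sites outside peaks in both libraries, leaving aside chromosomes 18 and Y. Its lowest FDR was 2.4e-06 and 1.4e-16. The near site, 22 and 24 bp wide, was 357 and 358 bp from the peak, with an FDR of 3.3e-11 and 9.7e-27. Within 1 kb of this TSS the gene had 1 peak in each library, of heights 8.72 and 15.7 and of 220 bp in both. There were 4 footprints inside it in each library, and 9 and 10 outside it. Of the outside ones, 8 in replicate 1 and 9 in replicate 2 were upstream of the peak and 1 in each was downstream.

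The Hdgfl2 site, 310 bp from the peak in replicate 2, was 45 bp wide there. In replicate 1 the same stretch held 2 footprints of 14 and 13 bp, at 336 and 322 bp from the peak. The stretch holds CCAAT on both strands, 1 match in each of those 2 footprints. Hdgfl2 encodes a chromatin-binding protein, and the centres of the 2 footprints of replicate 1 lie 596 and 582 bp upstream of its TSS.

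Outside footprints were narrower than inside ones in both libraries. The median width was 9 bp in each against 10 bp, and the mean was 10.6 and 11.3 bp against 12.6 and 13.5 bp. No footprint in the lists was narrower than 7 bp, and 35.2% and 33.4% of the outside ones had that width, against 27.3% and 26.3% of the inside ones. Wide footprints were scarcer: 7.08% and 10.4% of outside footprints were at least 20 bp wide against 16.5% and 20.5%, and 284 and 554 (1.16% and 2%) were at least 30 bp wide against 4.07% and 6.06%. The widest were 55 and 53 bp, against 70 and 72 bp inside. Footprints wholly inside a peak but near its edge had widths like those outside. Those wholly inside and within 10 bp of the edge had a median of 9 bp and a mean of 10.8 and 12 bp, where outside footprints within 10 bp had 9 bp and 10.7 and 11.6 bp. Footprints that crossed a peak edge, which count as inside, were wider, with medians of 11 and 13 bp and means of 14.1 and 16.3 bp. The part of the 1-base overlap rule in the difference in width was not tested.

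The difference in width was seen among peaks of similar height. Where the nearest peak had a height of 16 to 32, outside footprints had a median width of 10 bp in replicate 1 (3589 footprints) and 11 bp in replicate 2 (9093), against 18 bp inside in both. At heights of 4 to 8 the medians were 8 bp outside and 12 bp inside in both libraries. At heights up to 1 the medians were 8 bp for both kinds in both libraries, and the means were 8.88 and 8.63 bp outside against 9.75 and 9.55 bp. The width of inside footprints was larger at taller peaks, from a median of 8 bp to 18 bp over these classes, and that of outside footprints spanned 8 to 11 bp. Above a height of 32 the medians were 15 bp (21 footprints) and 11 bp outside, against 20.5 and 23 bp inside. These classes do not match the cut rate at the footprint. At heights of 16 to 32 the median lowest FDR was 3.9e-62 and 8.8e-64 outside against 1.5e-120 and 7.8e-117 inside. The part of cut rate in the difference in width was not tested. Near promoters the mean width was 11.1 and 12.1 bp outside against 13.9 and 15 bp inside, and away from promoters 9.73 and 10.1 bp against 12.1 and 12.9 bp.

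Nearly every outside footprint lay in chromatin that the FDR table lists. The footprint lists were made with that table as an input, so that this is a property of how they were made. Some base of the footprint had an FDR of at most 0.05 in 99.7% and 99.8% of outside footprints. The other 64 and 59 footprints touched no listed interval, and lay at most 18 and 17 bp from one. The lowest FDR within an outside footprint had a median of 1.1e-23 in replicate 1 and 1.6e-33 in replicate 2, which is lower than the medians of 2.2e-10 and 1.7e-12 for inside footprints. An FDR of at most 1e-20 was reached by 54.2% and 65.1% of outside footprints and by 29.6% and 36.6% of inside ones.

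**Figure D1:**
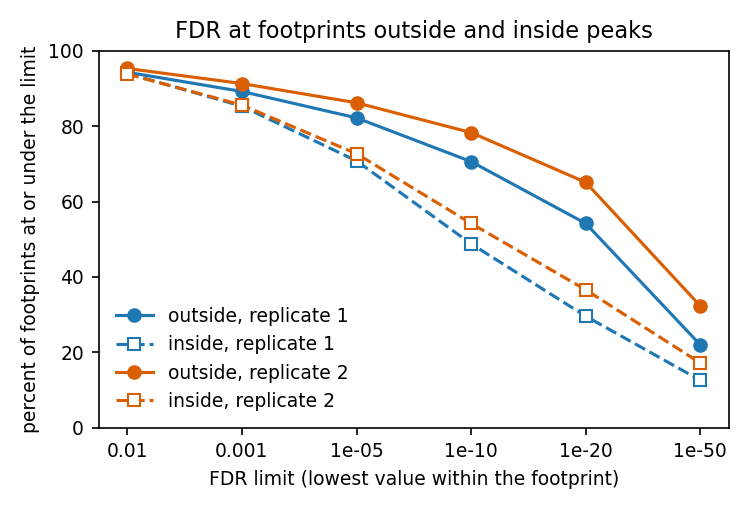
Share of footprints in percent (vertical axis) whose lowest FDR is at or under the limit on the horizontal axis; filled points are outside and open points inside footprints, by library. At 1e-20 the outside footprints stand at 54.2% and 65.1% and the inside ones at 29.6% and 36.6%.

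Among peaks of similar height the order was the reverse. At peak heights of 8 to 16 the median lowest FDR was 2.1e-42 and 2.0e-39 outside, against 8.8e-70 and 1.6e-58 inside. At heights up to 1 it was 0.00246 and 0.00348 outside against 4.6e-04 and 0.00103 inside. The median was higher outside than inside in all 7 height classes of both libraries. This FDR is that of the cut rate and does not rate the footprint itself. Peaks mark the strongest part of a field of cuts, so that this order is in part set by the rule.

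Outside footprints were sparse in the listed chromatin beyond peaks. Of all bases with an FDR of at most 0.05, 38.9% in replicate 1 (18.1 Mb) and 41.8% in replicate 2 (20.4 Mb) lay outside peaks. They held 1.35 footprints per kb in both libraries, against 9.64 and 9.49 per kb inside peaks, a ratio of 7.16 and 7. The ratio depended on the FDR of the footprint and of the bases counted. At an FDR of at most 1e-50 the density was 15.5 and 15.4 per kb outside and 22 and 22.1 per kb inside, a ratio of 1.41 and 1.44. Between 1e-05 and 0.001 it was 0.481 and 0.372 per kb outside against 7.65 and 7.4 per kb inside, a ratio of 15.9 and 19.9. Between 0.01 and 0.05 the ratio was 9.87 and 11.1.

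Most outside footprints lay just beyond the edge of a peak of the longer list. The median distance to the nearest peak was 22 bp in both libraries, with quartiles of 8 and 50 bp, and 90% lay within 108 and 109 bp. The largest distance was 468 bp in replicate 1 and 449 bp in replicate 2. Within 10 bp of a peak lay 28.2% and 28.7% of them, and at 200 bp or more 1.66% and 1.75%, which are 406 and 485 footprints. Footprints outside the shorter peak list had a median distance of 452 and 395 bp to its nearest peak. The 406 and 485 farthest footprints were near promoters in 88.2% and 87.4% of cases, against 50.5% and 49.6% of those within 10 bp.

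At the threshold of the rule, 814 and 918 footprints touched a peak edge from outside with no base in common, and 826 and 950 shared exactly 1 base with a peak. The first had a median width of 9 bp and a median peak height of 4.65 and 6.57, and the second 9 bp and 4.37 and 7.11. Footprints that crossed a peak edge were 9043 and 11694, and count as inside.

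**Figure D2:**
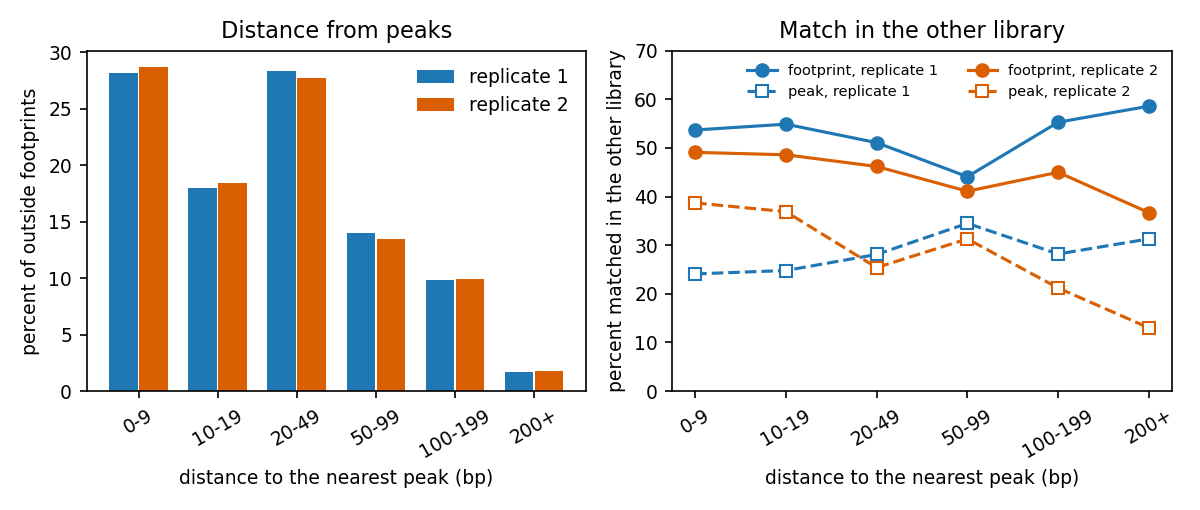
Left, share of outside footprints in percent by distance to the nearest peak in bp, in classes of unequal width; right, share of each class with a footprint (filled circles) or a peak (open squares) of the other library at the same bases. Classes within 50 bp of a peak hold most of the footprints, and the share with a footprint in the other library lies between 36.7% and 58.6% in every class.

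Listed intervals that touch were joined into runs to ask where in an open stretch the outside footprints sit. Counted once per footprint, the run around outside footprints had a median width of 785 and 865 bp. For inside footprints it was 334 and 335 bp. In runs of at least 1 kb lay 37.2% and 41.6% of outside footprints. In all, 5120 and 6594 (21% and 23.8%) lay between 2 peaks of the same run, in gaps of a median of 300 bp in both libraries. Of those between peaks, 90.7% and 90.6% were near promoters. Another 18909 and 20802 (77.5% and 75%) lay on the outer side of the peaks of their run, and of these 53.5% and 54.7% were near promoters.

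A small set lay in runs with no peak at all, 292 footprints in replicate 1 and 281 in replicate 2 (1.2% and 1.01%). Their runs, counted once per footprint, were 44.5 and 50 bp wide in the median and their FDR was high, 0.034 and 0.0351. The other library had a footprint at 7.19% and 9.25% of them. A peak was 34 and 42 bp away in the median.

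Outside footprints gathered at tall peaks. The nearest peak had a median height of 7 in replicate 1 and 11.3 in replicate 2, against 1.72 and 2.34 for inside footprints. When the peaks of each library were divided by height into 10 classes of equal size, the tallest class was the nearest one to 61.5% and 65.6% of outside footprints and held 24.1% and 25.9% of inside ones. At least 1 outside footprint was found at 51.3% and 55.9% of the peaks of that class (heights from 4.32 and 6.2), at 12.9% and 14.1% of the next class and at 1.52% and 1.14% of the lowest.

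**Figure D3:**
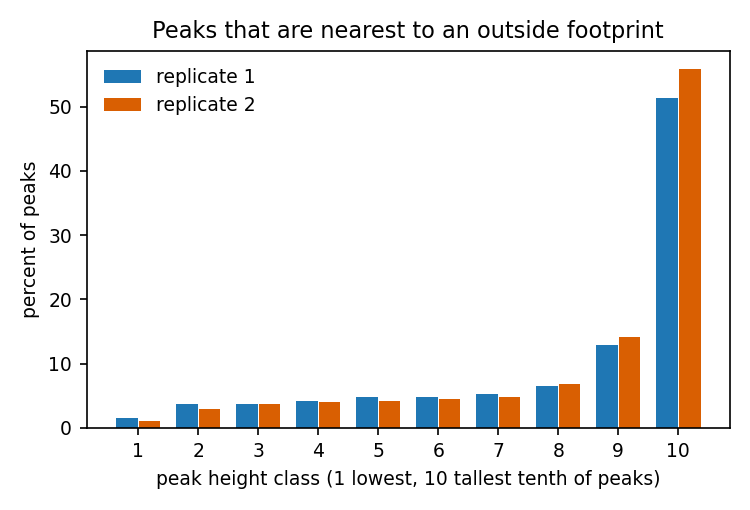
Share of peaks in percent that are the nearest peak of at least 1 outside footprint, by height class from the lowest (1) to the tallest (10) and by library. The tallest class stands at 51.3% and 55.9%, and the next one at 12.9% and 14.1%.

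Over all peaks, 15454 and 16906 (9.86% and 10.2%) had an outside footprint nearest to them, with up to 15 and 13 at one peak. Of these peaks 10173 and 10757 had 1, and 853 and 1132 had 4 or more. In the tallest class the share was larger at promoter peaks, 59.3% and 65.1%, than at other peaks, 33.3% and 36.5%. Promoter peaks of that class were also taller, with median heights of 9.25 and 13.6 against 5.73 and 8.48, and the part of height in that difference was not tested. In both libraries 1468 peaks had an outside footprint and no inside footprint.

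With the longer peak list, most outside footprints were near promoters. Within 1 kb of a TSS lay 60.9% in replicate 1 and 62.9% in replicate 2 (mean 61.9% ± 1.38, SD, n = 2), against 30.2% and 30.9% of inside footprints, 21.7% and 21.9% of peaks and 4.37% of the genome. Outside the shorter peak list the share was 30.8% and 32.9%. Introns held 19.2% and 18.5% (inside 37.2% and 37%), the space between genes 17.1% and 15.9% (inside 28.3% and 27.4%), and exons away from promoters 2.73% and 2.75% (inside 4.31% and 4.77%). The median distance to a TSS was 304 and 276 bp, against 6351 and 5900 bp inside. The share near promoters was higher at taller peaks for both kinds. At heights of 8 to 16 it was 89.6% and 77.9% outside against 87.1% and 69.6% inside.

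At promoters, outside and inside footprints were spread differently around the TSS. Of those within 1 kb of a TSS, 30.9% in both libraries lay in the 200 bp upstream of it, against 44% and 43.5% of inside footprints. The 200 bp downstream held 36.5% and 36.7%, against 23.5% and 23.9%. The stretch from 500 to 200 bp upstream held 17.5% and 17.4%, against 8.68% and 8.85%. The remaining stretches held smaller shares of outside than of inside footprints. From 1000 to 500 bp upstream the shares were 3.92% and 4.09% against 6.55% and 6.54%. From 200 to 500 bp downstream they were 6.85% and 7.16% against 8.48% in both. From 500 to 1000 bp downstream they were 4.35% and 3.84% against 8.81% and 8.72%. Downstream of the TSS altogether lay 47.3% and 47.4%, against 40.4% and 40.7%.

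The sequence around outside footprints was richer in GC in total but not within a place. The 100 bp around them had a median GC of 58% in both libraries, against 54% and 55% for inside footprints and 41.7% for the genome. Near promoters the medians were 64% and 63% outside and 64% in both inside, and away from promoters 50% in both outside against 51% and 53%. The mean number of CpG in those 100 bp was 5.66 and 5.7 outside and 3.71 and 3.86 inside. Repeats marked in the reference covered more than 50% of the bases of 10.4% and 9.98% of outside footprints and of 8.63% and 8.88% of inside ones.

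Of 19 motifs searched, 14 were less frequent at outside than at inside footprints in both libraries, and 3 were more frequent: those of SP/KLF, YY1 and TATA. Away from promoters 10 were less and 3 more frequent outside in both libraries, and near promoters 14 and 2. GATA letters (AGATAAG) were less frequent outside over all places. Away from promoters they were more frequent there, 0.367% and 0.291% against 0.284% and 0.248%. The letters were searched on both strands in the 31 bp around each centre, so that a match is a description and not a bound site. CTCF, the insulator protein, had a match at 40 and 37 outside footprints (0.164% and 0.133%), against 2.06% and 2.09% of inside ones. AP-1, the dimer of FOS and JUN proteins, searched as TGACTCA or TGAGTCA, had 1.21% and 0.786% against 4.21% and 3.36%. Away from promoters, where most inside AP-1 matches lay, the shares were 2.4% and 1.65% against 5.57% and 4.45%.

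SF-1, the product of Nr5a1 and the main regulator of steroidogenic cells, was searched as CAAGGTCA. It was matched at 105 and 108 outside footprints (0.431% and 0.389%), against 1.11% and 1.06% of inside ones. Away from promoters the shares were 0.923% and 0.835% against 1.46% and 1.41%. The overlapping NR4A letters AAAGGTCA were at 36 outside footprints in each library, or 0.148% and 0.13%, against 0.406% and 0.291%.

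Promoter motifs depended on the place considered. SP/KLF letters (GGGCGGG) were more frequent at outside footprints over all places, 5.36% and 5.16% against 4.14% and 4.49%, and less frequent near promoters, 7.82% and 7.13% against 11% and 11.3%. Near promoters ETS letters (CCGGAAG) were at 1.14% and 1.19% against 2.39% and 2.44%, NFY letters (CCAATCA) at 0.646% and 0.625% against 1.64% and 1.58%, and NRF1 letters (GCATGCGC) at 0.525% and 0.493% against 1.02% in both. The shorter CCAAT, added to the search after the printed sequences had been seen, was at 3.63% and 3.69% against 6.71% and 6.43%.

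YY1, a zinc finger protein whose motif often lies just downstream of the TSS, was the other way round. Its letters AAGATGGCG were at 92 and 99 outside footprints, 0.377% and 0.357% against 0.153% and 0.169% inside. Near promoters the shares were 0.579% and 0.551% against 0.335% and 0.363%. Those outside matches had a median position 28 and 25 bp downstream of the TSS, and 58.1% and 58.3% lay in the first 100 bp downstream. That stretch held 27.1% and 27% of all outside promoter footprints and 19.1% and 19.5% of inside ones. Within it the shares with YY1 letters were closer, 1.24% and 1.19% outside and 1.04% and 1.14% inside. TATAAAA was also more frequent outside, 0.287% and 0.231% against 0.151% and 0.12%, though not near promoters, where it was at 0.114% and 0.109% against 0.167% and 0.137%.

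The other library was then read at the same bases. A peak of replicate 2 overlapped 6664 of the outside footprints of replicate 1 (27.3%), beside 82.3% of all footprints of that library. A peak of replicate 1 overlapped 8734 of those of replicate 2 (31.5%), beside 82.4% of all footprints. Inside footprints had a peak in the other library in 87.2% and 87.6% of cases. Where the other library did have a peak, the far end of the footprint lay a median of 52 and 34 bp inside its nearer edge. For inside footprints this was 64 and 68 bp. The nearest peak of an outside footprint in one library overlapped its nearest peak in the other in 92.6% and 94% of cases.

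Footprints of the other library were more common than its peaks at these bases. The other library had a footprint at 12699 outside footprints of replicate 1 (52.1%), where the share over all footprints was 54.1%, and at 12899 of replicate 2 (46.5%), where it was 52.7%. Both shares are near the background and below it. Among inside footprints they were 54.3% and 53.3%. At similar peak height the outside shares were lower. At heights of 8 to 16 they were 66.9% and 50.3% against 85% and 75.7% inside, and at heights up to 1 they were 15% and 15.2% against 26.6% and 24%.

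Each outside footprint was put into 1 of 5 states by what the other library held. A peak and a footprint were there for 14.1% and 15.8%, and a peak alone for 13.2% and 15.7%. A footprint with no peak was there for 38% and 30.7%, and an FDR interval alone for 28.8% and 32.7%. None of these was there for 5.86% and 5.18%, or 1429 and 1438 footprints, whose nearest peaks had a median height of 0.542 and 0.605. Inside footprints had none in 8.03% and 8.99% of cases. An FDR of at most 0.05 was listed in the other library at 94.1% and 94.8% of outside footprints, against 91.9% and 90.9% of inside ones.

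**Figure D4:**
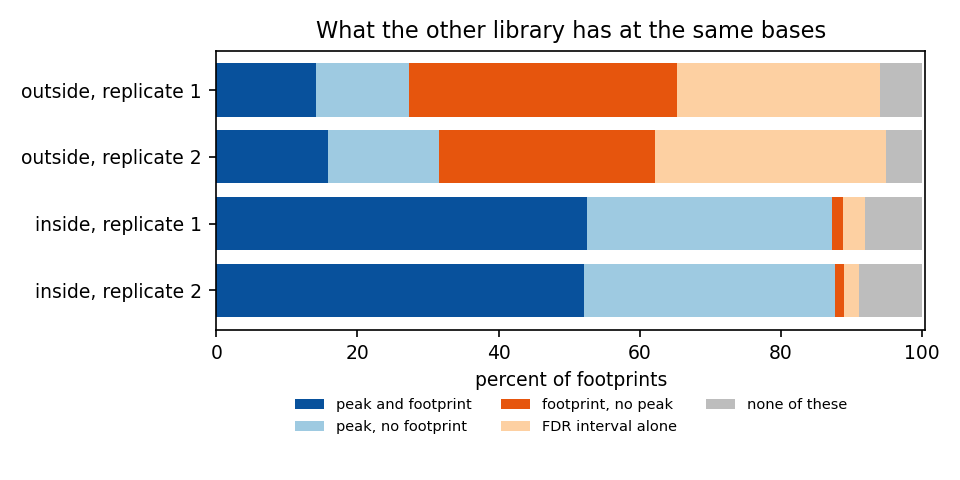
State of the other library at the bases of outside and inside footprints, in percent of footprints, by library; each bar sums to 100%. At outside footprints of replicates 1 and 2 a footprint without a peak makes up 38% and 30.7%, and at inside ones 1.68% and 1.22%.

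Among the footprints at 200 bp or more from a peak, 58.6% in replicate 1 and 36.7% in replicate 2 had a footprint in the other library, while 31.3% and 13% had a peak there. Between 2 peaks of a run 61.3% and 53% had a footprint in the other library, against 50.4% and 45.1% on the outer side.

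Of the outside footprints, 8417 of replicate 1 (34.5%) and 8213 of replicate 2 (29.6%) met an outside footprint of the other library, where 4.45% and 4.17% of all footprints did. That background is low in part by the rule, since 87.2% and 87.6% of inside footprints had a peak of the other library at the same bases. The outside footprints that met form 8720 overlapping pairs, since a wide footprint can meet several narrow ones, and a pair is called a shared site. The same start and end were found in 557 pairs (6.39%), and the same start or end in 3017. Shared sites were at promoters in 79.9% of cases. Their nearest peaks had median heights of 11.9 and 17.9, and their lowest FDR had medians of 6.0e-39 and 7.7e-52. In 798 pairs the site was over 100 bp from a peak in both libraries, and in 92 it was at least 30 bp wide in both.

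The widest shared site was 53 bp in both libraries and lay over exon sequence 106 bp upstream of one start of Zcchc2, at chr1:105990557-105990609 in replicate 1. It was 16 bp from a peak in replicate 1 and 117 bp in replicate 2, with an FDR of 1.3e-112 and 3.2e-112. The third widest, 44 bp in both, lay 40 bp upstream of Stag1, which encodes a cohesin subunit, between 2 peaks of its run in each library. The site at Hlcs, the gene of the enzyme that attaches biotin to carboxylases, was 42 and 43 bp wide and lay 167 bp from a peak in both.

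Sites far from peaks were all at promoters among the 8 farthest. Besides Fbxo31 and Hdgfl2 they were a site 108 bp downstream of the start of Fut8, a fucosyltransferase gene (369 and 386 bp from a peak), and one 358 bp downstream of that of Socs4, a suppressor of cytokine signalling (345 and 350 bp). The others lay 576 bp upstream of Ppp6r3, a regulatory subunit of protein phosphatase 6 (339 and 380 bp), and 481 bp upstream of Aak1, a kinase of clathrin-coated vesicles (320 and 344 bp). The last is also 404 bp downstream of the start of the noncoding 2610306M01Rik.

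Shared sites also lay at the TSS. The 8 named by distance from a protein-coding TSS were all centred on it in replicate 1. Ties went to chromosome and start order, so that other sites may lie as near. The 8 were at Fxr1, Osbpl9, Hspg2, Hmgb2, Ogfod1, Fdxacb1, Sltm and Ttc41. At Hspg2, which encodes the basement membrane protein perlecan, the site was 16 and 27 bp wide and 120 and 17 bp from a peak. At Hmgb2, a chromatin protein gene, it was 11 and 13 bp wide, 1 and 7 bp from a peak, and between 2 peaks of its run in both libraries.

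By nearest protein-coding TSS, genes with the most shared sites included Jarid2, a subunit of the repressive complex PRC2, and Fbrs, with 10 sites each. Of the 10 Jarid2 sites 9 were near the TSS, and of those of Fbrs 6. The next were Ptma, Spry2, Zfat and Maz with 9 sites each. Those of Spry2, a brake on receptor tyrosine kinase signalling, reached up to 221722 bp from its TSS, while those of Maz, a zinc finger factor, all lay within 608 bp.

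Tnrc18, Fbxo31, Ptbp1, Sfr1, Ino80 and Srrm1 had 8 sites each. Ptbp1 and Srrm1 act in splicing, and Ino80 is the ATPase of a chromatin remodeller. Bhlhe40, Zcchc2, Zfp395, Cebpb, Sertad2, Rfx1 and Ahsa2 had 7. All 7 sites at Cebpb, a leucine zipper factor gene, were within 345 bp of its TSS. The tallest nearest peak of these genes had a height between 8.72 and 23.3 in replicate 1.

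Shared sites at genes of the adrenal gland and of comparison lists were counted in the gene body or within 10 kb of a TSS. The share over all protein-coding genes was 27.6% (6042 of 21911), and it is given as a background, with no test. It takes in every protein-coding gene of the annotation and is not matched to the lists for peak height or gene length. Housekeeping genes stood at 75% by the same count. Of 14 genes of steroid hormone synthesis, 6 had a shared site (42.9%). Fdxr, which encodes the reductase that passes electrons to mitochondrial steroid hydroxylases, had 7 pairs, all 157 to 339 bp upstream of its TSS and 19 to 226 bp from a peak of height 16.3 and 23. One of them, at chr11:115277285-115277304, was 20 bp wide with the same ends in both libraries, at an FDR of 9.2e-23 and 3.2e-40.

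Fdx1, the gene of the ferredoxin that Fdxr serves, had 1 shared site 142 bp upstream of its TSS, 14 bp from a peak in both libraries. Scarb1, the receptor for cholesterol carried by HDL, had 1 at 141 bp upstream, and Mrap, the partner of the ACTH receptor, had 1 at 116 bp downstream. Cyp21a1, the steroid 21-hydroxylase, had 1 at 156 bp upstream, 9 and 24 bp wide, at an FDR of 2.2e-05 and 1.3e-11. Por, the reductase of microsomal cytochromes P450, had 2, of which 1 lay 348 bp upstream of its TSS. Star, Cyp11a1, Cyp11b1, Cyp11b2, Hsd3b1, Mc2r, Nr0b1 and Nr5a1 had none. Star, which brings cholesterol into mitochondria, had 2 outside footprints in each library at different bases, of 29 and 42 footprints in all.

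Among the genes that make cholesterol or take it up, 10 of 14 had a shared site (71.4%). Hmgcs1 had 3, at 445 and 427 bp upstream and 70 bp downstream of its TSS. Dhcr7, which encodes the last enzyme of one branch, had 3. Insig1, a brake on the pathway, had 1 at 26 bp downstream with an FDR of 3.0e-135 and 2.9e-123.

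Of 20 chromaffin genes of the medulla 2 had a shared site (10%). The Slc18a1 site lay 153 bp downstream of the start of its neighbour Atp6v1b2, a subunit of the vacuolar proton pump, and the Ddc site lay in an intron 70061 bp from the TSS. Of 14 genes of the zona glomerulosa and zonation 2 had a site (14.3%): Ctnnb1, the gene of beta-catenin, with 4 at its promoter, and Kcnk9, a potassium channel of glomerulosa cells, with 1.

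Of 12 adrenal transcription factor genes 3 had a site (25%). Nr4a1, an immediate response gene for an orphan nuclear receptor, had 6. Of these 2 lay at a promoter, 289 and 173 bp upstream of one of its TSS, and 4 lay between genes, 7985 to 7578 bp upstream. In that upstream group a footprint of 25 bp, at chr15:101246335-101246359 in replicate 1, lay 41 and 43 bp from a peak at an FDR of 1.5e-46 and 1.3e-93. Cited2 had 2 sites.

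Clock genes had a site in 11 of 13 cases (84.6%) and immediate early genes in 8 of 10 (80%). Per3 had 3 sites from 73 to 9 bp upstream of its TSS, all between 12 and 82 bp from a peak, at FDR values down to 2.7e-173 and 2.5e-271. Junb had 7, of which 3 lay 27 to 109 bp downstream of its TSS. The site 109 bp downstream was 13 bp wide with the same ends in both libraries and 125 bp from a peak in each. Dbp had 5 and Fosl2 had 4.

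Housekeeping genes had a site in 9 of 12 cases (75%), and Actb and Ywhaz had 4 each. Macrophage genes had one in 4 of 10 (40%), though for 3 of the 4 every site was nearest to the TSS of another gene. The 5 sites counted for Aif1 lay at the start of Gm17705, that of Cd68 at Eif4a1, and both of Spi1 in exons nearest to Mybpc3. In the other lists, the only sites of Clock, Ier2, Idi1, Sdha, Ddc and Slc18a1 were also nearest to the TSS of another gene. So were some of the sites of Dbp, Bhlhe40, Jund, Atf3, Tbp and Por. Endothelial genes had one in 1 of 12 (8.33%), at Erg, where the FDR was 0.00395 and 0.0266. The median number of shared sites was 2 in the clock and immediate early lists and 1 in the cholesterol and housekeeping lists. In every other list, that of steroid hormone synthesis among them, it was 0, as it was over all protein-coding genes.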

How the data were processed

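DNase-seq peaks, FDR of the cut rate and footprints were used as deposited, per library, for 2 libraries. Per the labels and the deposited sample notes, positions are on mm10, and footprints were made from that library's own alignments and FDR table with no pooling. An aligner, peak caller, footprint caller or threshold is not given in the sources used here. Peak heights are a signal that the authors scaled before deposit. The FDR values are p-value-like numbers (q-values) deposited only below 0.05, and the p-value column of the deposited footprints held 1 distinct value, 0.01, so that footprints could not be ranked by it.

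Overlapping peaks of the longer list were joined (157595 to 156813, and 166206 to 165555), keeping the larger height. Overlap means at least 1 shared base. FDR intervals that touch were merged into runs. A footprint was placed by its centre: promoter (within 1 kb of a TSS), exon, intron or between genes. Distances of shared sites from a TSS are from the centre in replicate 1. Genes came from GENCODE M21 and sequence from GRCm38.p6. Python 3.11.15, numpy 2.4.6, pandas 2.3.3 and matplotlib 3.10.9 were used. Interval counts were tested on simulated data, with 0 mismatches.

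The members, the 10 gene lists and the 19 motifs were chosen with earlier results of these data known. Named sites are the 8 widest shared sites, the 8 farthest from peaks and the 8 nearest to a protein-coding TSS, without chromosome 18 and Y. Ties among sites went to chromosome and start order. Named genes are the 20 with the most shared sites and up to 6 per list. Some genes that meet this rule are not reported here. Values are given per library with mean and SD over 2 libraries where stated. Alternatives were the shorter peak list, peaks widened by 50 bp, other overlap minimums, FDR limits, windows and gene sets, and leaving out each library.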

Additional observations from a re-analysis of the deposited data

How the results depend on the processing

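Values are means of the 2 libraries. The share of footprints outside peaks, 8.75%, was 22.3% with the shorter peak list, 2.21% with peaks widened by 50 bp and 10.3% when 50% of a footprint had to lie in a peak. With the shorter list the other values were a median width of 8 bp, 99.3% touching an FDR interval, a median distance of 424 bp (22 bp with the longer list), 8.92% between 2 peaks of a run (22.4%), 31.9% near promoters (61.9%), 25.4% between genes (16.5%), 45.4% with a peak in the other library (29.4%), 31.1% with a footprint there (49.3%), 18.2% meeting an outside footprint (32.1%) and a median GC of 53.5% (58%). With peaks widened by 50 bp they were 8.5 bp, 99.7%, 43 bp, 26.4% between peaks, 71.3% near promoters, 12.2% between genes, 24.1% meeting an outside footprint and a GC of 61%. An FDR limit of 0.01 or 0.001 in place of 0.05 gave 94.8% and 90.3%. Distance from the centre of the footprint was 27 bp. The promoter share was 56.9% within 500 bp and 58.6% for protein-coding TSS, and 19.1% lay between protein-coding genes. The shorter list of the other library had a peak at 25.5%. Requiring 50% of the footprint gave 42.3% with a footprint and 27.5% with an outside footprint in the other library. GC over 200 bp was 57.8%. In all, 31 of 36 alternatives moved a value by more than 1 SD of 2 libraries, which was 0 for 3 results, and 5 did not. With 2 libraries, leaving out either one leaves the value of the other, which lies within 1 SD of their mean by construction. No paired analysis was possible because there is 1 group. Without read depth no counting error can be given for a single footprint.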
